A study of Homo sapiens with 8 samples.

Results

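The genes described here are 10 members of the NF-kB system: the subunit genes NFKB1, NFKB2, REL, RELA and RELB, the inhibitor genes NFKBIA and NFKBIE, and the feedback and target genes TNFAIP3, TNFAIP2 and BIRC3. They were picked by symbol from a table of 35369 genes, in which all 10 were found, and all 10 were among the 13030 genes that passed a filter on low values. The libraries were made from messenger RNA of MOLM13 cells, a long-established line derived from human acute myeloid leukemia, with 2 libraries in each of 4 groups. Control cells were labelled wild type, knockdown cells were depleted of IGF2BP2 by a short hairpin, rescue cells were labelled as IGF2BP2 rescue, and mutant rescue cells as rescue with a mutated IGF2BP2. IGF2BP2 encodes a protein that binds messenger RNA carrying N6-methyladenosine. The labels' protocols describe infection with virus and puromycin where selection was needed. The sources used here do not give the hairpin, the mutation, the promoter of the rescue constructs or the vector of the control cells, nor whether both libraries of a group came from separate cultures, so p-values measure only the spread between libraries.

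NF-kB factors are pairs of Rel proteins that inhibitors of the IkB family hold in the cytoplasm until upstream kinases mark the inhibitor for destruction. The freed pair enters the nucleus and switches on inflammatory and survival genes, and among its targets are its own brakes, including NFKBIA and TNFAIP3. Myeloid cells use this system to answer microbial products and cytokines, and NF-kB activity has been described in acute myeloid leukemia. In these data only transcript levels were measured, not protein, its place in the cell or DNA binding.

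The promoter sequences of 3 members, chosen after their values were seen, are given. NFKBIA and TNFAIP3 passed the test in the most comparisons, and TNFAIP2, which passed in none, is with NFKBIA the other member whose control and rescue libraries did not overlap the other 4. Each is the 250 bases before the RefSeq start of the gene (GRCh38.p14), 5′ to 3′ on the gene's strand, and capitals mark matches to the kB consensus, the 10-base site that NF-kB pairs bind, searched on both strands. They are NFKBIA at chr14:35404750-35404999 (minus strand), TNFAIP3 at chr6:137867009-137867258 (plus strand) and TNFAIP2 at chr14:103123211-103123460 (plus strand).
NFKBIA: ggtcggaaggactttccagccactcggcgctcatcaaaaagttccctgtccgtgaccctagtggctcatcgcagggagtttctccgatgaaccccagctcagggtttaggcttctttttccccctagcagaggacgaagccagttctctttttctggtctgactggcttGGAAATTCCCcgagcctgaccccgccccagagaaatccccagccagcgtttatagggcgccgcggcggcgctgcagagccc
TNFAIP3: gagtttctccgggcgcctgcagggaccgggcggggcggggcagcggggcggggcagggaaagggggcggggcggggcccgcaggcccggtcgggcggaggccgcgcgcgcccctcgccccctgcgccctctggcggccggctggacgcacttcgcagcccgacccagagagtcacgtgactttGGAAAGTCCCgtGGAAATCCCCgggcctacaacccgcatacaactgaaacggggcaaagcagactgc
TNFAIP2: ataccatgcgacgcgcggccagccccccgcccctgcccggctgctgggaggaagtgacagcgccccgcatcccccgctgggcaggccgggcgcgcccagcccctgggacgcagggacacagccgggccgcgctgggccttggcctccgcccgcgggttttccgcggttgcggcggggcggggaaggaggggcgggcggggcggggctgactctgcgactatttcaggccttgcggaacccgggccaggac
NFKBIA held 1 match, from 81 to 72 bases before the start, and TNFAIP3 held 2, at 67 to 58 and at 55 to 46 bases before it. The TNFAIP2 window held none of these letters. RefSeq windows were found for 8 of the 10 members, with 12 windows in all, since NFKB1, NFKB2 and RELA have more than 1 start. A match stood in 7 of the 12 windows and in 6 of the 8 genes (NFKB1, NFKB2, REL, NFKBIA, TNFAIP3 and BIRC3), against 9.96% of all 35116 windows in the table and 11.8% of the 13769 windows of genes past the filter. Some matches overlap each other because the consensus is close to its own reverse complement. The core of the interferon-stimulated response element, GAAANNGAAA on either strand, stood in 1 member, in a RELA window, and in 3.02% of all windows. These matches describe letters in a window, not bound sites.

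The level of IGF2BP2 was read first. IGF2BP2 had log2 values of 10.94 and 10.89 in control, 10.24 and 10.25 in knockdown, 11.36 and 11.13 in rescue, and 11.03 and 10.68 in mutant rescue, so the knockdown libraries were the lowest. Myeloid markers (10 of 10 past the filter) summed to between 4121 ppm of the sum of a library's linear values in control and 24590 ppm in mutant rescue. Their sum was 11940 to 12350 ppm in knockdown and 8841 to 10180 ppm in rescue. These shifts were mostly in LYZ, at 2363 and 2889 ppm in control and 15410 and 23180 in mutant rescue. The 9 markers without LYZ summed to 1542 to 1758 ppm in control, 1749 to 1820 in knockdown, 1828 to 1921 in rescue and 1410 to 1757 in mutant rescue. FLT3, HOXA9 and MPO were lower in both mutant rescue libraries than in both control libraries. FLT3 stood at 549.6 and 396.5 ppm against 835.8 and 633.4, and HOXA9 at 108.3 and 114.1 against 187.3 and 188.6. In knockdown FLT3 was at 550.1 and 576 ppm and HOXA9 at 118.8 and 123.3, also below control. Rescue held 701 and 668.9 ppm of FLT3 and 162 and 151.4 of HOXA9. CD33, PTPRC, MEIS1, CSF1R and LYZ were higher in both mutant rescue libraries than in both control libraries. CD44 and SPI1 overlapped. Markers of T and NK, B, erythroid and stromal or epithelial cells passed the filter for 1 of 7, 1 of 5, 0 of 5 and 3 of 7 genes, with CD3E, MS4A1, HBA1, HBA2 and COL3A1 at 0 in every library. Interferon-stimulated genes (28 of 28 past the filter) summed to 681.5 to 684.1 ppm in control, 876.1 to 912.1 in knockdown, 12070 to 13290 in rescue and 3323 to 3494 in mutant rescue. The part of these shifts in the results on NF-kB genes was not tested. In such bulk libraries, fewer cells of a kind and less RNA per cell cannot be told apart. Replicates lay farthest apart in mutant rescue, where the SD of their log2 difference over genes was 0.303, against 0.148 in knockdown.

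**Figure D1:**
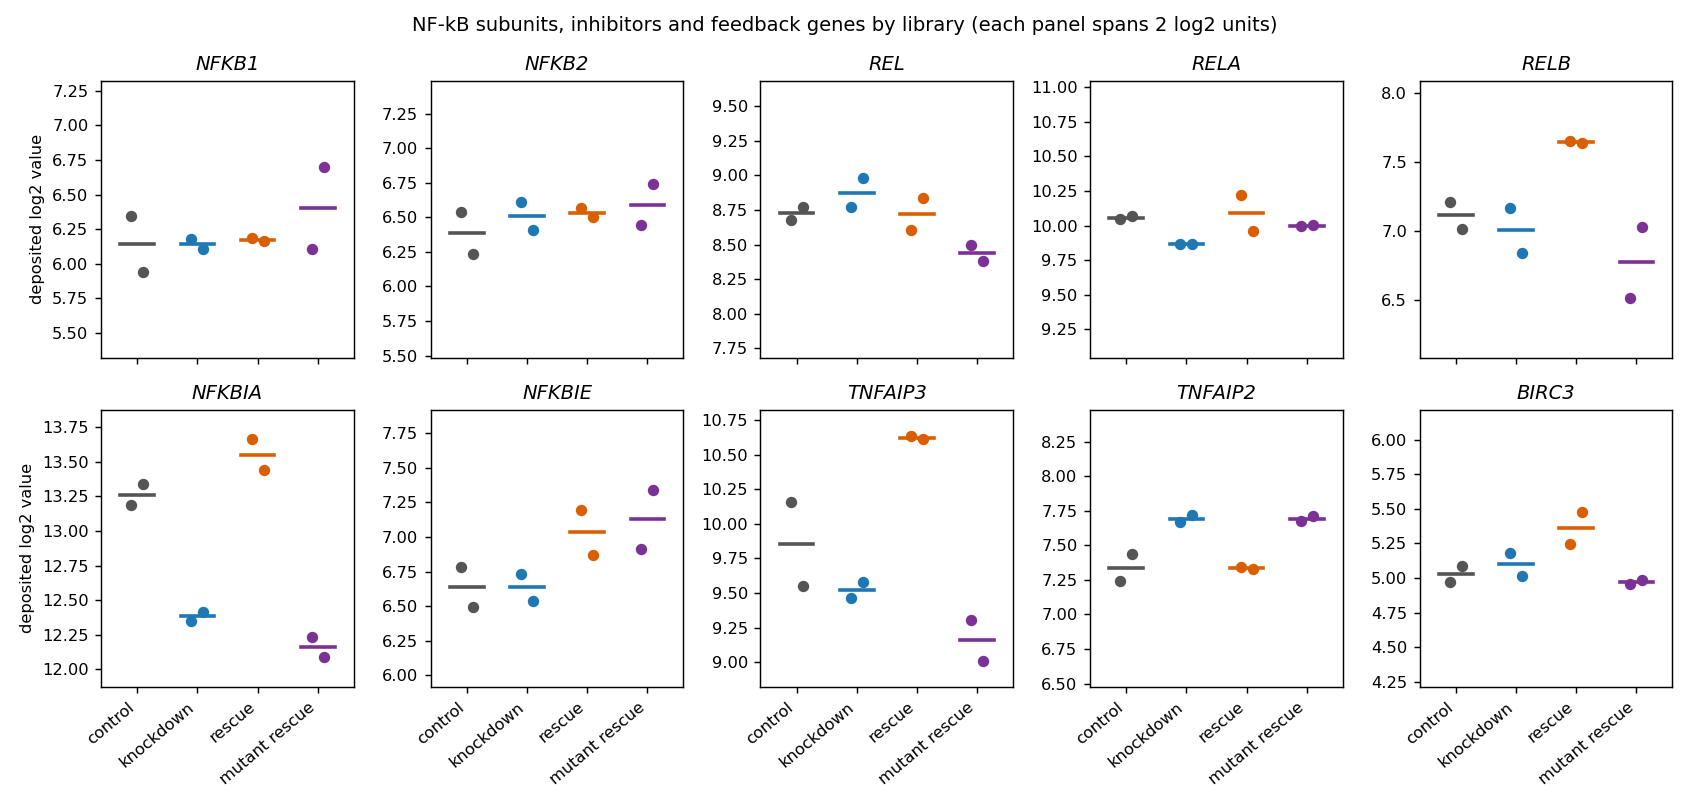
Deposited log2 values of the 10 genes (vertical axis, log2, each panel spanning 2 units) in the 4 groups (horizontal axis). Each point is 1 library and each bar the mean of 2. NFKBIA lies at 13.19 to 13.66 in control and rescue and at 12.09 to 12.42 in knockdown and mutant rescue, and TNFAIP2 has the opposite order.

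NFKBIA, the gene of the inhibitor IkB-alpha and a direct target of NF-kB, was lower in knockdown and mutant rescue than in control and rescue. Its log2 values were 13.19 and 13.34 in control, 12.35 and 12.42 in knockdown, 13.66 and 13.44 in rescue, and 12.24 and 12.09 in mutant rescue. All 4 control and rescue libraries stood above all 4 knockdown and mutant rescue libraries. The mean ± SD (n = 2) was 13.26 ± 0.11 in control, 12.38 ± 0.05 in knockdown, 13.55 ± 0.16 in rescue and 12.16 ± 0.11 in mutant rescue. NFKBIA spans bases 35401511 to 35404749 of chromosome 14 on the minus strand (GRCh38, GENCODE v29, protein coding), with no overlapping gene.

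Tests of these differences were made with limma over all 13030 genes, with Benjamini-Hochberg adjustment, and a gene with an adjusted p under 0.05 is said to be called. NFKBIA fell by 0.88 on the log2 scale in knockdown (SE 0.11, 1.84-fold, adjusted p = 0.00303). It was 1.17 higher in rescue than in knockdown (SE 0.11, 2.25-fold, adjusted p = 0.000500). Among all tested genes it ranked 70th from the lowest in the first comparison and 113th from the highest in the second. Rescue exceeded mutant rescue by 1.39 (SE 0.11, 2.62-fold, adjusted p = 0.000319). Mutant rescue stayed below control, with a log2 difference of -1.10 (SE 0.11, adjusted p = 0.000479). The comparisons of knockdown with control and of rescue with mutant rescue share no library. They do share the fit, its estimate of the spread and the normalization. Each of the other comparisons shares a group with both of these comparisons. Between mutant rescue and knockdown the log2 difference was -0.22 (95% interval -0.48 to 0.04, adjusted p = 0.205), and between rescue and control it was 0.29 (interval 0.03 to 0.55, adjusted p = 0.174). Neither passed the test. The knockdown call was lost without knockdown replicate 1 (adjusted p = 0.0548), at a log2 change of -0.85. In the authors' deposited table the log2 changes of NFKBIA were -1.09 in knockdown against control and 1.40 in rescue against knockdown (adjusted p = 2.16e-14 and 3.13e-23), and -1.65 in mutant rescue against rescue (adjusted p = 5.11e-14).

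NFKBIE, the gene of the inhibitor IkB-epsilon, did not share this order. It averaged 6.64 ± 0.20 in control and 6.64 ± 0.14 in knockdown, against 7.03 ± 0.23 in rescue and 7.13 ± 0.31 in mutant rescue (SD, n = 2). Both rescue groups thus had the higher means, and the lowest library of each, at 6.87 and 6.91, stood above the highest control library at 6.78. No comparison passed the test, and the smallest adjusted p was 0.0895, for mutant rescue against control (log2 difference 0.49, interval 0.06 to 0.92). Without mutant rescue replicate 1 the differences of mutant rescue from control and from knockdown were 0.71 each and passed (adjusted p = 0.0260 and 0.0358). NFKBIE lies on chromosome 6, 44258166 to 44265788, minus strand.

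TNFAIP3, which encodes A20, a ubiquitin-editing enzyme that shuts off signalling to NF-kB, was highest in rescue. Its log2 values were 10.16 and 9.55 in control, 9.47 and 9.58 in knockdown, 10.64 and 10.61 in rescue, and 9.31 and 9.01 in mutant rescue. Both rescue libraries lay above all others and both mutant rescue libraries below all others, while control replicate 2 fell within the knockdown range. Rescue exceeded mutant rescue by 1.47 (SE 0.19, 2.76-fold, adjusted p = 0.00316), the 54th largest increase of 13030 genes, and this call held in every alternative tried. Over the fits without 1 library its difference lay between 1.32 and 1.61 and its adjusted p between 0.00181 and 0.0294.

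TNFAIP3 was also 1.10 higher in rescue than in knockdown (SE 0.19, 2.15-fold, adjusted p = 0.0139). That call did not survive the removal of any single knockdown library (adjusted p = 0.131 without replicate 1 and 0.0945 without replicate 2) or rescue library (0.0874 and 0.0767), although the difference stayed between 1.05 and 1.16. Against control, rescue was 0.77 higher (adjusted p = 0.0452) and mutant rescue had a log2 difference of -0.70 (adjusted p = 0.0281). The control libraries lie far apart in this gene, and without control replicate 2 the rescue difference was 0.46 (adjusted p = 0.177) and without control replicate 1 the mutant rescue difference was -0.40 (adjusted p = 0.128). The rescue call also failed when knockdown replicate 1 or 2 was left out (adjusted p = 0.0903 and 0.0901) or either rescue library (0.145 and 0.186), with no filter (0.112), in a fit of the 2 groups (0.0620) and without a mean trend (0.0552). The mutant rescue call was also lost without either knockdown library (0.0502 and 0.0503) or mutant rescue replicate 2 (0.113), with no filter (0.0713) and in a fit of the 2 groups (0.0655). The difference between knockdown and control was -0.34 (interval -0.76 to 0.09) and did not pass (adjusted p = 0.276). The authors' deposited table gave TNFAIP3 log2 changes of 1.38 in rescue against knockdown and -1.84 in mutant rescue against rescue (adjusted p = 1.78e-19 and 9.89e-13). TNFAIP3 spans bases 137867188 to 137883312 of chromosome 6 on the plus strand. Over 1046 of these bases it overlaps AL357060.1 on the opposite strand, and the labels do not say that strand was used, so reads there could come from either gene.

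TNFAIP2, a target gene of tumor necrosis factor signalling that is active in myeloid cells, had the reverse order of NFKBIA. Its log2 values were 7.24 and 7.43 in control, 7.67 and 7.72 in knockdown, 7.34 and 7.33 in rescue, and 7.67 and 7.71 in mutant rescue. The 4 control and rescue libraries did not overlap the other 4, and no control or rescue library exceeded 7.43. The log2 differences were 0.36 in knockdown against control, -0.36 in rescue against knockdown, 0.36 in mutant rescue against control and -0.36 in rescue against mutant rescue, each with an SE of 0.12. None passed the test, at adjusted p = 0.0869, 0.138, 0.0586 and 0.0832. The differences of knockdown and of mutant rescue from control passed without a mean trend in the variance (adjusted p = 0.0491 and 0.0321), and that of mutant rescue also with a filter of 5 ppm (0.0475). Mutant rescue and knockdown differed by 0.00 (interval -0.27 to 0.27). TNFAIP2 lies on chromosome 14, 103123442 to 103137439, plus strand.

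NFKBIA and TNFAIP2 were therefore the 2 of 10 members whose control and rescue libraries did not overlap those of knockdown and mutant rescue, 1 higher and 1 lower. Such a separation was seen in 14.0% of all tested genes, so the members' share is close to the background. BIRC3, which encodes an inhibitor of apoptosis protein that also ubiquitinates NF-kB regulators, had log2 values of 4.97 and 5.08 in control, 5.18 and 5.01 in knockdown, 5.25 and 5.47 in rescue, and 4.95 and 4.98 in mutant rescue. Rescue libraries were the highest, and rescue exceeded mutant rescue by 0.39 (SE 0.11, interval 0.15 to 0.63), which missed the threshold (adjusted p = 0.0516). In the authors' deposited table the BIRC3 change in mutant rescue against rescue was -1.40 (adjusted p = 0.175). The deposited library values of BIRC3 thus gave a smaller difference than the authors' own fold change. This held for the called members too. In rescue minus mutant rescue the authors' changes were 1.65 for NFKBIA, 1.84 for TNFAIP3 and 1.47 for RELB, beside 1.39, 1.47 and 0.87 here. The folds and ppm given here come from the deposited library values, and the sources used here do not state how these were transformed. They therefore need not equal ratios or shares of expression. The reason for the gap to the authors' changes was not tested. In rescue against mutant rescue BIRC3, not called in the main fit, passed with libraries centred on their median (adjusted p = 0.0495). It also passed with a constant of 16 added to the linear values (0.0473).

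**Figure D2:**
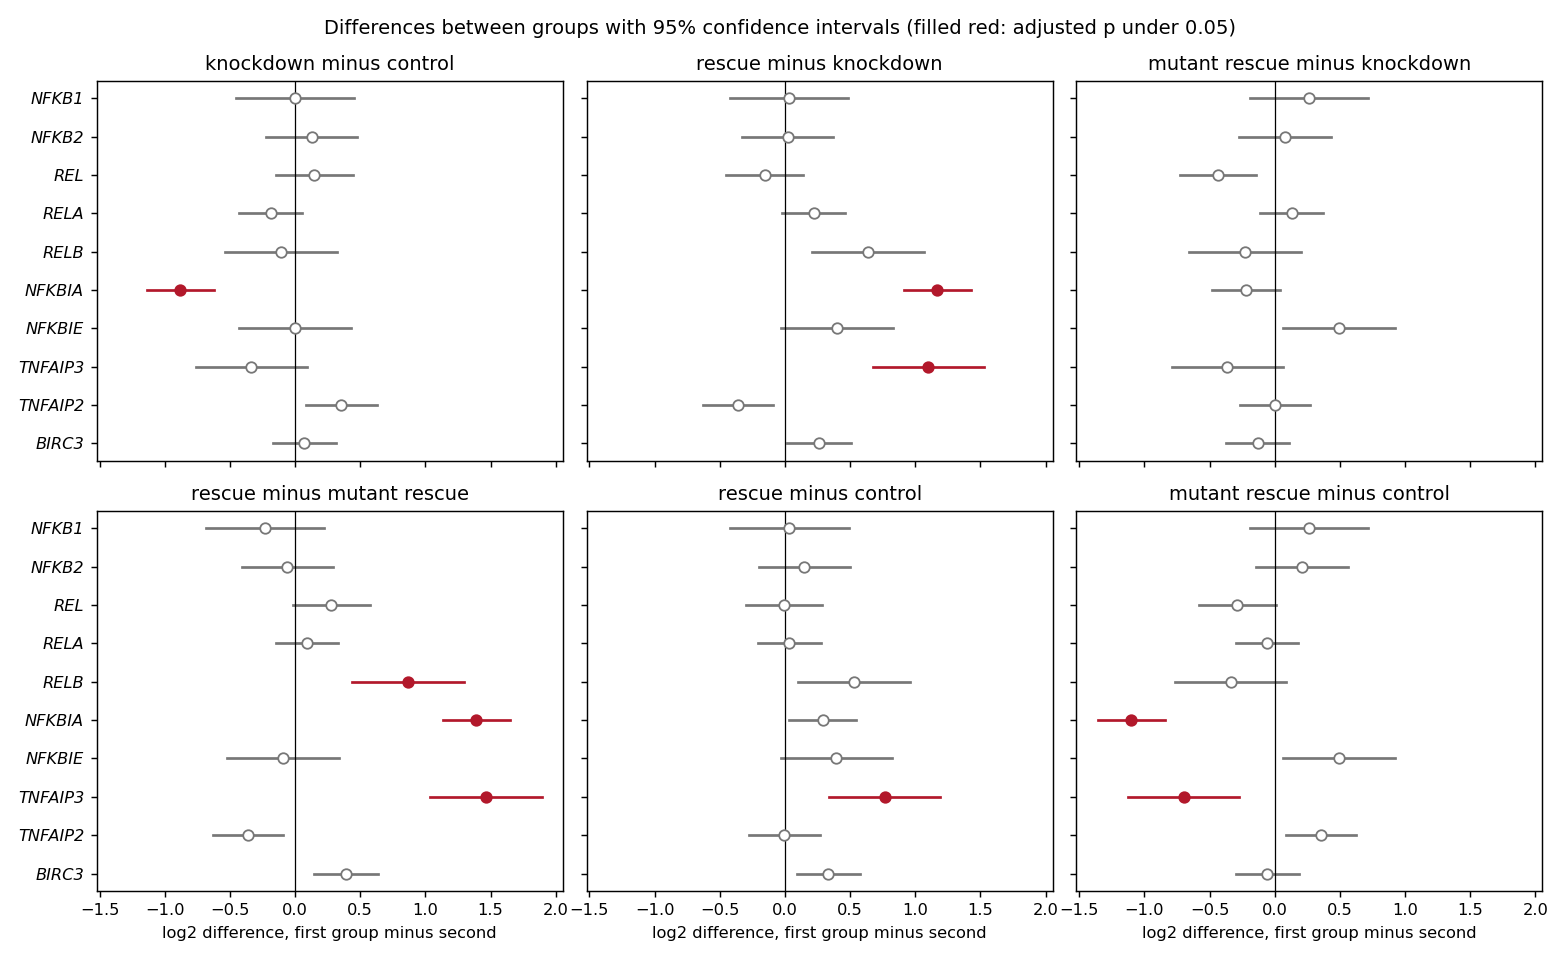
Log2 difference of each gene (horizontal axis, first group minus second) in the 6 comparisons, with 95% confidence intervals from limma. Filled red points have an adjusted p under 0.05: NFKBIA in 4 panels, TNFAIP3 in 4 and RELB in 1, with no filled point for mutant rescue against knockdown.

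Among the subunits, only RELB was called in any comparison. RELB is the subunit of the non-canonical pathway, which pairs with the processed product of NFKB2, and it is itself induced by NF-kB. Its log2 values were 7.21 and 7.02 in control, 7.17 and 6.84 in knockdown, 7.65 and 7.64 in rescue, and 6.52 and 7.03 in mutant rescue. Both rescue libraries stood above the other 6. RELB was 0.87 higher in rescue than in mutant rescue (SE 0.19, 1.83-fold, adjusted p = 0.0254). This call was lost when the other groups were left out of the fit (adjusted p = 0.104), with no filter on low values (0.0555), and without rescue replicate 1 or 2 (0.0844 and 0.124). Without mutant rescue replicate 1, the lowest RELB library, the difference was 0.61. Rescue against knockdown gave 0.64 (interval 0.21 to 1.07, adjusted p = 0.103). It passed when the fit held knockdown and rescue alone (adjusted p = 0.0454) and without either mutant rescue library (0.0348 each). RELB also passed in rescue against control without either mutant rescue library (0.0474 each), and in mutant rescue against control without mutant rescue replicate 2 (-0.60, adjusted p = 0.0457). In the authors' deposited table the RELB change in rescue against knockdown was 1.06 (adjusted p = 0.00919). RELB lies on chromosome 19, 45001430 to 45038198, plus strand.

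The other 4 subunit genes passed in no comparison. RELA, which encodes the main activating subunit of the canonical pathway, ranged from 9.87 to 10.22 over the 8 libraries. Its 2 knockdown libraries were the lowest, at 9.87 each, and its largest log2 difference was 0.22, in rescue against knockdown (interval -0.02 to 0.46, adjusted p = 0.295). REL, the gene of the subunit c-Rel, ranged from 8.38 to 8.98 and was lowest in mutant rescue, at 8.50 and 8.38. Mutant rescue minus knockdown was -0.43 for REL (interval -0.73 to -0.14, adjusted p = 0.0609), the subunit difference nearest to the threshold outside RELB. NFKB1, whose product is the precursor of the DNA-binding partner of RELA, ranged from 5.94 to 6.70, with mutant rescue replicate 2 the highest. Without mutant rescue replicate 1 its difference between mutant rescue and control was 0.56 (adjusted p = 0.0395), and without replicate 2 it was -0.03. NFKB2, the precursor of the partner of RELB, ranged from 6.23 to 6.74 with overlapping groups in every comparison.

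The position of these genes in GRCh38 was chromosome 4, 102501329 to 102617302 for NFKB1, chromosome 10, 102394110 to 102402529 for NFKB2, chromosome 2, 60881521 to 60931610 for REL, chromosome 11, 65653596 to 65663094 for RELA and chromosome 11, 102317450 to 102339403 for BIRC3. All are protein coding. RELA overlaps AP001362.2 on the opposite strand by 9 bases, and REL contains RNU4-51P and AC010733.2 on its own strand.

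By comparison, 1 of 10 members was called in knockdown against control, where 12.8% of all genes were. In rescue against knockdown 2 of 10 were called, both higher, where 4.24% of all genes were. The median log2 difference there was 0.24 over members and 0.00 over all genes. In mutant rescue against knockdown limma called 0 of 10 members, and 2 had an unadjusted p under 0.05 (REL and NFKBIE), where 11.3% of all genes were called. In rescue against mutant rescue 3 of 10 were called, all higher, where 10.5% of all genes were, with medians of 0.19 over members and -0.02 over all. Against control, 1 of 10 was called in rescue (7.18% of all genes) and 2 of 10 in mutant rescue (24.9%), so the share of members in mutant rescue against control was not above the background. The authors' deposited table had adjusted p under 0.05 for 1 member in knockdown against control, 3 in rescue against knockdown, 0 in mutant rescue against knockdown, 3 in mutant rescue against rescue, and 2 each in rescue and mutant rescue against control.

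**Figure D3:**
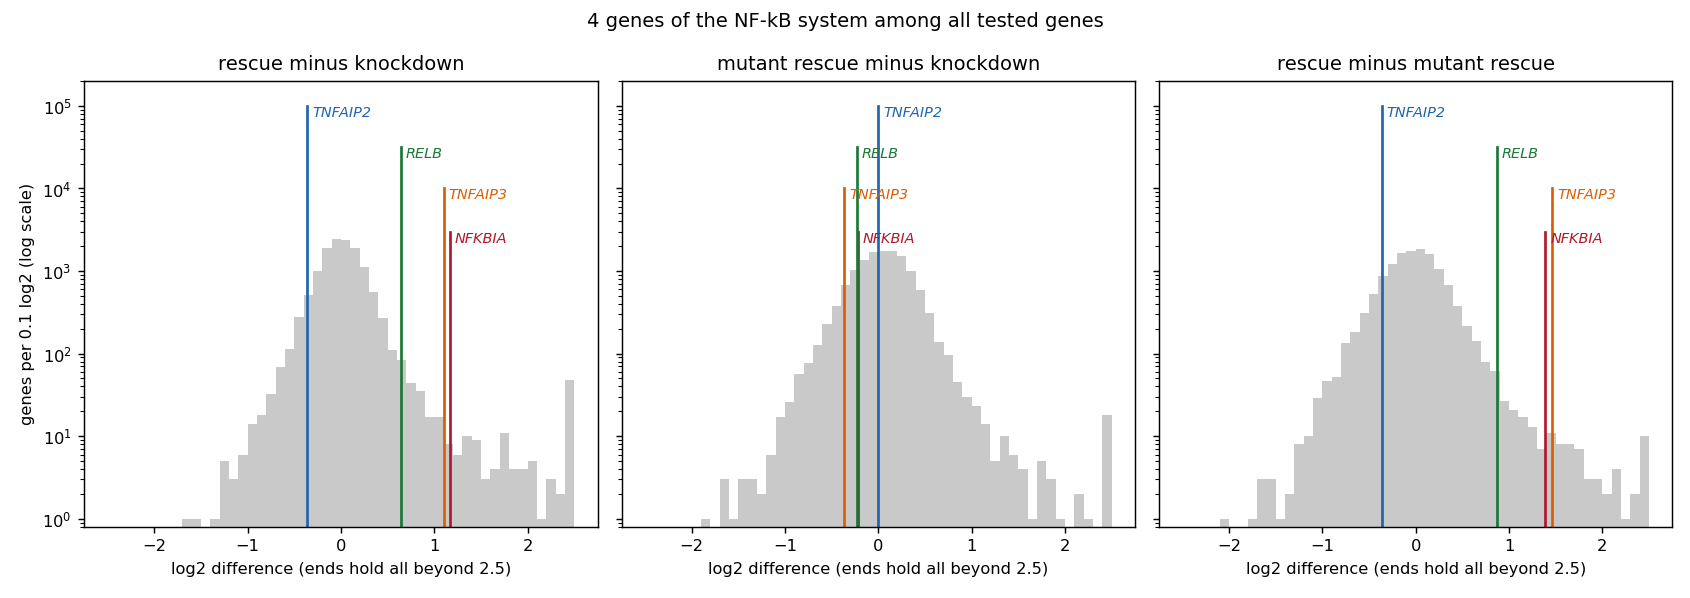
Histograms of the log2 differences of all 13030 tested genes (vertical axis, genes per 0.1 log2 on a log scale), with NFKBIA, TNFAIP3, RELB and TNFAIP2 as vertical lines whose heights carry no value. NFKBIA and TNFAIP3 stand at 1.17 and 1.10 in rescue against knockdown and at -0.22 and -0.36 in mutant rescue against knockdown.

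The 2 constructs were then set side by side against the same knockdown libraries. The 3 members called by the test between the constructs were NFKBIA, TNFAIP3 and RELB. Their differences from knockdown were positive in rescue (1.17, 1.10 and 0.64). In mutant rescue the estimates were negative (-0.22, -0.36 and -0.23), but none of these passed the limma test (adjusted p = 0.205, 0.207 and 0.416). Without mutant rescue replicate 1 the RELB difference of mutant rescue from knockdown was 0.03. The summed level of interferon-stimulated genes was above knockdown with both constructs. Of these genes 28 of 28 were called higher in each, with medians of 4.12 in rescue and 1.83 in mutant rescue. In mutant rescue, where these genes were above control, NFKBIA and TNFAIP3 were below control. In rescue, where 28 of 28 were also called above control, TNFAIP3 was 0.77 above control and NFKBIA did not pass against control. A link between the interferon-stimulated genes and these members was not tested.

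Other genes of the pathway were read in 5 lists, whose counts stand against the shares of all genes called that are given above for each comparison. Of 28 kinase and adaptor genes past the filter, limma called 0 in knockdown against control, with 2 at an unadjusted p under 0.05, and 2 rose in rescue over knockdown. These were RBCK1 (1.87, SE 0.09, adjusted p = 6.18e-06), a component of the linear ubiquitin chain assembly complex, and MYD88 (1.31, SE 0.18, adjusted p = 0.00415), the adaptor of Toll-like and interleukin 1 receptors. In mutant rescue over knockdown 4 rose and 2 fell, among them RBCK1 (0.90), NOD2 (0.71), a sensor of bacterial peptidoglycan, and TAB3 (-0.50), a partner of the kinase TAK1. Between the constructs RBCK1 and MYD88 were higher in rescue, each by 0.97, and NOD2 was lower (-1.02). The level of NOD2 was low, with log2 values of 4.14 to 5.45 over the libraries. Against control, IKBKE, a kinase related to the IkB kinases, was 0.53 higher in rescue, and TRADD, an adaptor of the tumor necrosis factor receptor, 0.64 higher in mutant rescue. The list medians lay between 0.07 and 0.11 in the 6 comparisons.

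Of 9 receptor genes TLR6 was called higher in knockdown (0.41, adjusted p = 0.0171), at low log2 values of 4.17 to 4.71 over the libraries. In rescue over knockdown limma called 0 of 9, and 1 of 9 had an unadjusted p under 0.05. TNFRSF13C, the receptor of the cytokine BAFF, was higher in mutant rescue than in knockdown (0.89) and in rescue (by 0.71, the difference of rescue minus mutant rescue being -0.71). In mutant rescue 5 of 9 receptors were above control, where 24.9% of all genes were called in either direction, among them TNFRSF13C (1.13), TNFRSF1A (0.53) and TLR6 (0.33). Of 6 ligand genes 2 each were called in knockdown against control and in both rescues against knockdown, and 3 each in rescue against mutant rescue and mutant rescue against control. TNFSF13B, which encodes BAFF, was higher in knockdown than in control (0.53) and higher again in rescue (0.73 over knockdown) and mutant rescue (0.40). TNF, the archetypal NF-kB activating cytokine, was called lower in mutant rescue than in knockdown (-0.56), control (-0.60) and rescue, the last by 0.46 as rescue minus mutant rescue (adjusted p = 0.0456). IL1B was 0.30 higher in knockdown than in control and fell by 0.38 in rescue, but its level was low. Its log2 values ran only from 3.65 to 4.09 over the libraries. IL18 was 0.44 above control in mutant rescue, and rescue minus mutant rescue was -0.52.

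Among 17 other inhibitor and negative regulator genes, NFKBIZ had the order of NFKBIA. NFKBIZ encodes the atypical nuclear protein IkB-zeta and is an NF-kB target. It fell by 0.64 in knockdown (adjusted p = 0.0187) and was 0.67 higher in rescue than in knockdown (adjusted p = 0.0282). It was 1.03 higher in rescue than in mutant rescue (SE 0.13, adjusted p = 0.00317) and was called lower in mutant rescue than in control (adjusted p = 0.00151). Its control and rescue libraries ranged from 9.87 to 10.24 and the other 4 from 8.97 to 9.44, without overlap. CYLD, a deubiquitinase, was 0.65 higher in rescue than in mutant rescue and 0.80 above control. ZC3H12A, an RNase that degrades inflammatory transcripts, was lower in mutant rescue than in knockdown (-0.70) and control (-0.81), and rescue exceeded mutant rescue by 0.67. TNIP1, a partner of A20, was higher in knockdown (0.38) and mutant rescue (0.48) than in control. Its control and rescue libraries, at 9.378 to 9.718, lay below the other 4, at 9.719 to 9.893. Of the 17 genes, 1 was thus separated higher and 1 lower in control and rescue, beside 14.0% of all tested genes separated in either direction. In mutant rescue against control 2 of the 17 were called higher and 4 lower, beside 24.9% of all genes. List medians lay between -0.06 and 0.06.

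Of 21 other target genes, 6 rose and 0 fell in rescue over knockdown, where 4.24% of all genes were called (420 higher and 133 lower). The list median was 0.11, beside 0.00 over all genes. They were led by the chemokine gene CXCL10 (5.73, SE 0.18), which interferon also induces, IL1RN (1.66, SE 0.10), the interleukin 1 receptor antagonist, and CCL3 (1.41, SE 0.14). In mutant rescue over knockdown 3 rose, CXCL10 (2.67), CCL3 (1.19) and IL1RN (0.56), and 2 fell. Between the constructs 7 were higher in rescue and 1 lower, with CXCL10 (3.06), IL1RN (1.10) and the chemokine gene CCL2 (0.96) first. In knockdown against control 4 rose and 2 fell, among them PTGS2 (0.63) and SQSTM1 (0.55) higher and PLEK (-0.77) lower. PLEK, the gene of the platelet and leukocyte protein pleckstrin, was also lower in mutant rescue than in control (-1.06). Of all 81 pathway genes in the 5 lists, 12 had control and rescue libraries that did not overlap the other 4, and 3 of these were higher and 9 lower in control and rescue, against 14.0% of all tested genes.

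**Figure D4:**
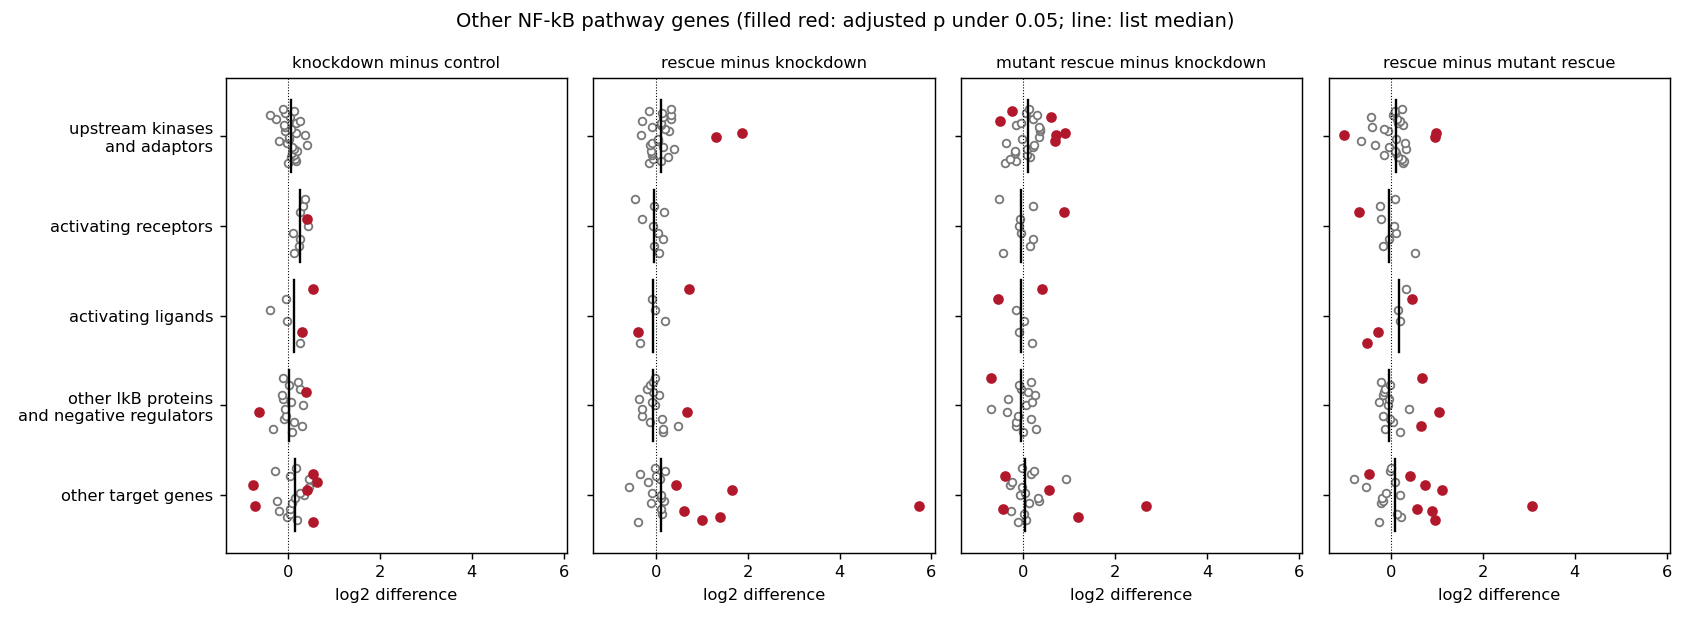
Log2 differences (horizontal axis) of the pathway genes outside the 10 members, by list, in 4 comparisons. Each point is 1 gene, filled red where the adjusted p is under 0.05, and black lines are list medians, which lie between -0.06 and 0.25. The point farthest right is CXCL10, at 5.73 in rescue against knockdown.

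Genes whose log2 values correlated most with those of the called members over the 8 libraries were named by Pearson's r as a description. They were UBXN2A (r = 0.987) and SPATA31C1 (0.984) for NFKBIA, SLC9C2 (0.997) for TNFAIP3, and TCHP (0.970) and CCDC9 (0.934) for RELB. The 8 points share 4 groups and 1 normalization, and r takes no account of the size of a change. The SD of the log2 values over the libraries was 0.26 for UBXN2A, 0.12 for SPATA31C1 and 0.21 for SLC9C2. It was 0.083 for TCHP and 0.29 for CCDC9.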

How the data were processed

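The deposited table holds log2 values per library that the authors normalized across the 8 libraries, and, for each pair of groups, a log2 fold change and p-values computed by the authors. The file headers name getDiffExpression.pl of HOMER. Besides HOMER, the tools kallisto and Trim Galore and the build GRCh38 are listed in the submitters' processing notes, where they have no version or role. Counts are not used here, so depth is unknown and no counting interval is given. Library groups and numbers came from the sample titles. Of 35370 rows 1 has no symbol and 10937 genes are at 0 in every library.

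Values were fitted as deposited with limma 3.58.1 (R 4.3.3) over all genes: group means of the 8 libraries (4 residual degrees of freedom), empirical Bayes with a mean trend, on genes that reached 1 ppm of the summed linear values in 2 or more libraries. The 6 contrasts cover every pair of groups, with Benjamini-Hochberg adjustment over all 13030 genes and a threshold of 0.05. The fit was tested on simulated data with independent noise for each gene, which does not cover shifts shared by many genes of a library. Alternatives were other filters, scaling, variance trend, an added constant of 16, a replicate block, fits of 2 groups and fits without 1 library. The members and lists were chosen with earlier results of these data known. All members are named, with up to 3 called genes of each list and contrast with the smallest adjusted p and the 2 genes most like each called member, of which 1 is not reported here. Positions are from GENCODE v29 and promoter windows from RefSeq.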

Additional observations from a re-analysis of the deposited data

Results flagged for a closer look

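NFKBIA, TNFAIP3 and RELB differed between the constructs by a test of the difference itself, rescue minus mutant rescue, which equals the difference between their effects over the same knockdown libraries. On the log2 scale this was 1.39 for NFKBIA, 1.47 for TNFAIP3 and 0.87 for RELB (limma, adjusted p = 0.000319, 0.00316 and 0.0254). These genes were taken because this test called them. For each, both rescue libraries stood above both mutant rescue libraries, which adds no support, since the same libraries gave the call. In this comparison the libraries of 6 of 10 members did not overlap. The count was also 6 of 10 in mutant rescue minus knockdown, where limma called 0 members. The share over all genes was not computed, so neither count is read as a result about the members.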

How the results depend on the processing

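The 60 differences of the members were recomputed under 15 alternatives, except that BIRC3 did not pass the filter of 5 ppm, giving 894 values. Of these 823 kept direction and side of the threshold, 23 lost and 15 gained a call, and 33 changed sign, with no adjusted p under 0.681 among the sign changes. With libraries centred on their median the NFKB1 difference of knockdown minus control became -0.00807 and the TNFAIP2 difference of mutant rescue minus knockdown -0.0508. With 16 added, that of NFKB1 became -0.00135. Centring moved the median of all genes by up to 0.06. Leaving out 1 library at a time, these log2 differences changed sign. BIRC3 ranged from -0.0130 to 0.16 in knockdown minus control and -0.12 to 0.000989 in mutant rescue minus control. NFKB1 ranged from -0.20 to 0.20 in knockdown minus control, -0.000230 to 0.0650 in rescue minus knockdown, -0.0327 to 0.56 in mutant rescue minus knockdown, -0.53 to 0.0651 in rescue minus mutant rescue, -0.17 to 0.23 in rescue minus control and -0.0319 to 0.56 in mutant rescue minus control. NFKB2 ranged from -0.0237 to 0.28 in knockdown minus control, -0.0796 to 0.12 in rescue minus knockdown, -0.0667 to 0.23 in mutant rescue minus knockdown, -0.20 to 0.0887 in rescue minus mutant rescue and -0.00176 to 0.30 in rescue minus control. NFKBIE ranged from -0.15 to 0.14 in knockdown minus control and -0.31 to 0.12 in rescue minus mutant rescue. REL ranged from -0.12 to 0.11 in rescue minus control. RELA ranged from -0.0369 to 0.22 in rescue minus mutant rescue and -0.0947 to 0.16 in rescue minus control. RELB ranged from -0.27 to 0.0536 in knockdown minus control and -0.49 to 0.0259 in mutant rescue minus knockdown. TNFAIP2 ranged from -0.0229 to 0.0246 in mutant rescue minus knockdown and -0.10 to 0.0941 in rescue minus control.

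The members called were 2 in knockdown minus control without a mean trend. They were 1 in mutant rescue minus control, and 0 in rescue minus control, both with no filter and with only the 2 groups, and 0 in rescue minus control without a trend. Over all genes, no filter gave 1070 calls in knockdown minus control, 573 in mutant rescue minus knockdown, 777 in rescue minus mutant rescue and 610 in rescue minus control. Fits of only the 2 groups gave 2620 in knockdown minus control, 1246 in rescue minus knockdown, 279 in mutant rescue minus knockdown, 192 in rescue minus mutant rescue and 1793 in mutant rescue minus control. Without 1 library, members called ranged from 0 to 1 in knockdown minus control, 1 to 3 in rescue minus knockdown, 0 to 1 in mutant rescue minus knockdown, 2 to 3 in rescue minus mutant rescue, 0 to 2 in rescue minus control and 1 to 4 in mutant rescue minus control. Over all genes the ranges, in the same order, were 179 to 2359, 176 to 864, 79 to 2801, 241 to 2870, 361 to 1422 and 1440 to 3953. A group left with 1 library is assumed to vary like the others.

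With the replicate number as a block, BIRC3 passed in rescue minus mutant rescue (adjusted p = 0.0481), and no count of calls moved by over 1.5 times. Deviations of libraries sharing a number correlated between -0.0212 and 0.414 over 6 pairs of groups, so the numbers were not taken to pair the libraries. Depth is unknown, and 2 libraries a group limit the precision.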
